A study of Caenorhabditis elegans with 119 samples.

Results

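The transcriptome of untreated wild-type Caenorhabditis elegans was compared between adult day 8 and adult day 4. The comparison uses 8 day 8 libraries and 8 day 4 libraries, 4 of each age from trial 2 and 4 from trial 3, set beside 103 other libraries in a study of sulforaphane (a compound derived from broccoli) and ageing. These 16 were taken by their labels from 1 deposited table of additional control libraries, with the trial kept as a term in the model. All 16 came from whole worms of the standard laboratory strain N2, genotype WT, given the solvent alone (0.25% DMSO) on agar with 51 µM FUdR, an inhibitor of DNA synthesis that blocks the development of progeny, from the first day of adulthood, at 20 °C on Escherichia coli OP50-1. Each library holds RNA from a pool of about 50 worms, so that differences between single animals cannot be seen. The replicates of an age were aged and collected in tandem, and the p-values below measure the spread between such pools.

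In a self-fertile C. elegans hermaphrodite, the first days of adulthood are spent laying eggs, and the intestine makes yolk proteins (vitellogenins) that oocytes take up. Egg laying then ends, and the animal goes on to a longer post-reproductive life in which muscle, gut and gonad decline. Insulin-like signalling through the transcription factor DAF-16 sets much of the pace of this decline, and the intestine is also the main site of digestion, fat metabolism and defence against bacteria.

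The deposited values are counts of reads per gene. Total counts were 1071727 to 5609496 per library at day 8 and 2850875 to 8611922 at day 4, and the shallowest was day 8 trial 2 replicate 4. At an equal depth of 1000000 counts, 12198 to 13713 genes were seen at day 8 and 12383 to 13320 at day 4. Genes for ribosomal RNA took 1.55 to 7.52% of counts at day 8 and 2.75 to 16.8% at day 4, a difference between the ages that was not tested as a part of any result below. Markers of the main tissues of a whole worm were present at both ages. Oocyte and eggshell genes summed to 22203 to 30326 CPM at day 8, against 26418 to 35565 CPM at day 4, body wall and pharyngeal muscle genes to 2268 to 3851 CPM at day 8, against 3144 to 4444 CPM at day 4, and neuronal genes to 358 to 519 CPM at day 8, against 312 to 485 CPM at day 4. Of 92 genes on a sperm list, 9 had enough counts to be tested. A list of genes of late embryos and larvae summed to 422 to 486 CPM at day 8, against 403 to 493 CPM at day 4. Most of that sum came from pal-1 and lin-26. With all ages scaled together, pal-1 averaged 195 CPM at day 8 and 224 at day 4, and lin-26 averaged 184 and 163. The means of the whole list were 458.5 and 465.5 CPM. The sum is therefore not read as a measure of embryos or larvae, and the presence of progeny was not tested. In libraries of whole worms, fewer cells of a type and less RNA per cell cannot be told apart.

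Of 10331 genes tested, 3247 passed an adjusted p of 0.05 (31.4%), in edgeR's quasi-likelihood test with Benjamini-Hochberg adjustment over all genes tested. Of these, 1707 were higher at day 8 (16.5% of genes tested) and 1540 were lower (14.9%). A change of at least 1 on the log2 scale was seen in 385 of the genes that rose and 431 of those that fell. In 193 genes every day 8 library was above every day 4 library (1.87%), and in 246 every day 8 library was below (2.38%), which is 4.25% of genes tested in both directions together. The split between rises and falls depends on the scaling. The median log2 fold change over all genes tested was 0.0154 with TMM scaling, which equalises the bulk of genes, and 0.159 with scaling by library totals alone, and scaling by totals gave 3131 higher and 873 lower. Fold changes below use TMM scaling, are on the log2 scale as day 8 over day 4, and levels are in CPM, counts scaled to a library of 1000000, on the same scaling. The counts of list members below stand beside the shares of all genes tested, 16.5% higher and 14.9% lower. With scaling by library totals, they stand beside 3131 higher and 873 lower of 10331. In the separate DMSO libraries of the treatment table, described at the end, 9.06% of all genes tested were higher and 10.1% lower.

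**Figure D1:**
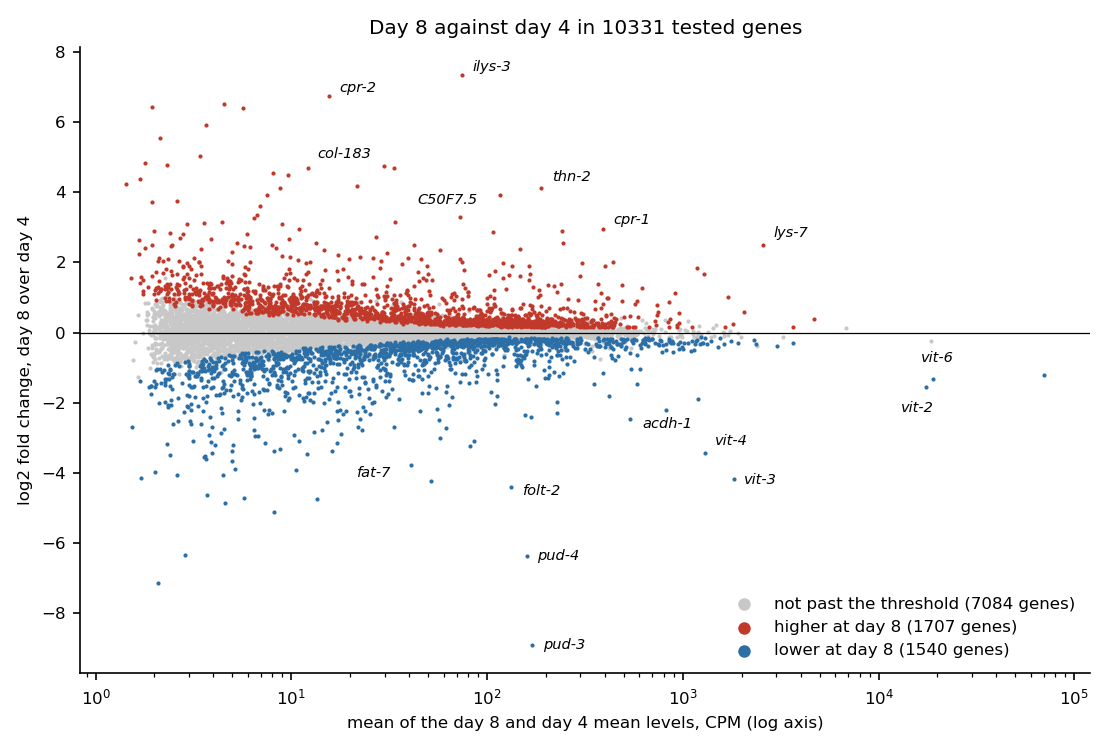
Each point is a gene, with its mean level over both ages in CPM on a log axis (x) and its log2 fold change, day 8 over day 4 (y). The 1707 genes higher at day 8 and the 1540 lower ones are coloured, and ilys-3 and pud-3 stand at the upper and lower ends.

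The yolk genes fell, with 1 exception. Of the 6 vitellogenin genes, 5 were lower at day 8 and the median log2 fold change was -1.89. The gene with the largest fall of them was vit-3 (WBGene00006927, chromosome X, bases 3567355 to 3572549, build WBcel235), at 108.3 to 293 CPM with a median of 166 at day 8, against 2121 to 4891 CPM with a median of 3422 at day 4. Its log2 fold change was -4.19 ± 0.26 (SE; edgeR adjusted p = 4.25e-08), and no day 8 library reached the lowest day 4 library. For vit-4 the levels were 103.9 to 369 CPM with a median of 208 at day 8, against 1922 to 2896 CPM with a median of 2272 at day 4, a log2 fold change of -3.43 ± 0.28 (SE; edgeR adjusted p = 6.49e-07). The sequences of vit-3 and vit-4 are near copies, so that reads may be divided between them in a way the counts do not show. vit-1 changed by -2.21 (edgeR adjusted p = 4.81e-06), vit-2 by -1.57 (edgeR adjusted p = 1.25e-05) and vit-6, which encodes the precursor of the smaller yolk proteins, by -1.32 (edgeR adjusted p = 3.79e-05), each with no overlap between the ages. By contrast, vit-5 stood at 11619 to 23578 CPM with a median of 16153 at day 8, against 14944 to 26052 CPM with a median of 20117 at day 4. The ages overlapped in vit-5, and its log2 fold change of -0.23 ± 0.18 (SE; edgeR adjusted p = 0.347) did not pass the threshold; it was -0.50 in trial 3 and 0.03 in trial 2. All vitellogenins together took 2.64 to 5.55% of counts at day 8 and 6.44 to 8.74% at day 4. Vitellogenins are made in the intestine, and of 29 tested genes on an intestinal marker list 3 were higher and 13 lower (median -0.465), while the summed level of that list was 1760 to 2915 CPM at day 8, against 1563 to 2722 CPM at day 4; the part of intestinal content in the vitellogenin fall was not tested.

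The steepest falls were in a gene cluster. pud-3 (WBGene00017501, chromosome V, bases 2324634 to 2325152) belongs to a small family of genes first found by their higher protein level in worms with reduced function of the insulin receptor gene daf-2. It had 0 to 2.49 CPM with a median of 0 at day 8, against 74.1 to 655 CPM with a median of 315 at day 4, with a log2 fold change of -8.91 ± 0.45 (SE; edgeR adjusted p = 7.08e-09). Every day 4 library held at least 74.1 CPM of it, and no day 8 library more than 2.49. Its neighbour pud-4 had 0.57 to 8.09 CPM with a median of 3.43 at day 8, against 37.1 to 557 CPM with a median of 299.6 at day 4. Its change on the log2 scale was -6.37 ± 0.41 (SE; edgeR adjusted p = 6.42e-08). All 6 tested pud genes lie within 8893 bases of chromosome V, from base 2322038 to base 2330930 of WBcel235, and all 6 were lower at day 8; the family was gathered after pud-3, pud-4 and pud-1.1 had been seen among the largest falls. pud-1.1 had a log2 fold change of -4.76 ± 0.32 (SE; edgeR adjusted p = 5.79e-11), and the copy of pud-2 with the identifier WBGene00017500 one of -5.11 ± 0.40 (SE; edgeR adjusted p = 5.82e-10). pud-1.2 had 0 counts over the day 8 libraries and 177 over the day 4 libraries. The copies of pud-1 and of pud-2 are close in sequence, and reads may be divided between them.

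Other genes among the 12 largest falls encode transporters, enzymes and receptors. folt-2, a putative folate transporter, had 2.49 to 32.1 CPM with a median of 7.86 at day 8, against 211 to 313 CPM with a median of 248 at day 4. The log2 fold change was -4.40 ± 0.34 (SE; edgeR adjusted p = 4.88e-07). Relative to their level, the day 8 libraries differed among themselves more than the day 4 libraries did. fat-7, a stearoyl-CoA desaturase that makes oleic acid, had 2.77 to 9.31 CPM with a median of 3.90 at day 8, against 34.8 to 122.03 CPM with a median of 74.1 at day 4, a log2 fold change of -3.77 ± 0.28 (SE; edgeR adjusted p = 1.09e-07). The chemoreceptor-family gene srh-237 fell to a median of 0.15 CPM at day 8, against 12.02 at day 4, with a log2 fold change of -4.73. The remaining genes of this group were T05E12.6 at -4.24, K09C4.5 at -3.93 and C32H11.4 at -3.47. In each of these 6 genes, as in vit-3, vit-4 and the pud genes named, all 8 day 8 libraries lay below all 8 day 4 libraries.

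Among the 12 largest rises, ilys-3 (WBGene00016670, chromosome IV, bases 2464456 to 2465443), an invertebrate-type lysozyme that digests bacterial cell walls, came first. It had 13.9 to 384 CPM with a median of 116 at day 8, against 0 to 4.77 CPM with a median of 0.219 at day 4. The gene's log2 fold change was 7.33 ± 0.69 (SE; edgeR adjusted p = 2.88e-06). The lowest day 8 library was above the highest day 4 library, although day 8 libraries spread widely among themselves. The cathepsin B-like protease gene cpr-2 had 3.04 to 68.4 CPM with a median of 25.4 at day 8, against 0 to 0.563 CPM with a median of 0 at day 4, a log2 fold change of 6.74 ± 0.72 (SE; edgeR adjusted p = 6.69e-06) that rests on 8 counts over the day 4 libraries. thn-2, of the thaumatin family, which in plants holds antifungal proteins, had 145 to 546 CPM with a median of 349.6 at day 8, against 5.07 to 58.8 CPM with a median of 21.3 at day 4. Its log2 fold change was 4.14 ± 0.31 (SE; edgeR adjusted p = 3.43e-07), and that of its relative thn-1 was 4.69 ± 0.35 (SE; edgeR adjusted p = 1.58e-07). col-183, a cuticle collagen, had 14 to 90.2 CPM with a median of 71.05 at day 8, against 0.95 to 4.03 CPM with a median of 2.22 at day 4. That is a log2 fold change of 4.75 ± 0.45 (SE; edgeR adjusted p = 2.54e-06). For C50F7.5 the levels were 68.8 to 373 CPM with a median of 221 at day 8, against 2.90 to 42.5 CPM with a median of 7.24 at day 4, with a log2 fold change of 3.91 ± 0.51 (SE; edgeR adjusted p = 6.66e-05). The other 6 were WBGene00015077, annotated as a pseudogene, at 6.404 (4 counts over the day 4 libraries), Y68A4A.13 at 4.69, pqn-73, which encodes a protein rich in glutamine and asparagine, at 4.56, H39E23.3 at 4.49, W01C9.2 at 4.17 and Y25C1A.14 at 3.60. The rule that named the 24 genes required that the ages did not overlap, so the lack of overlap among them is a description.

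**Figure D2:**
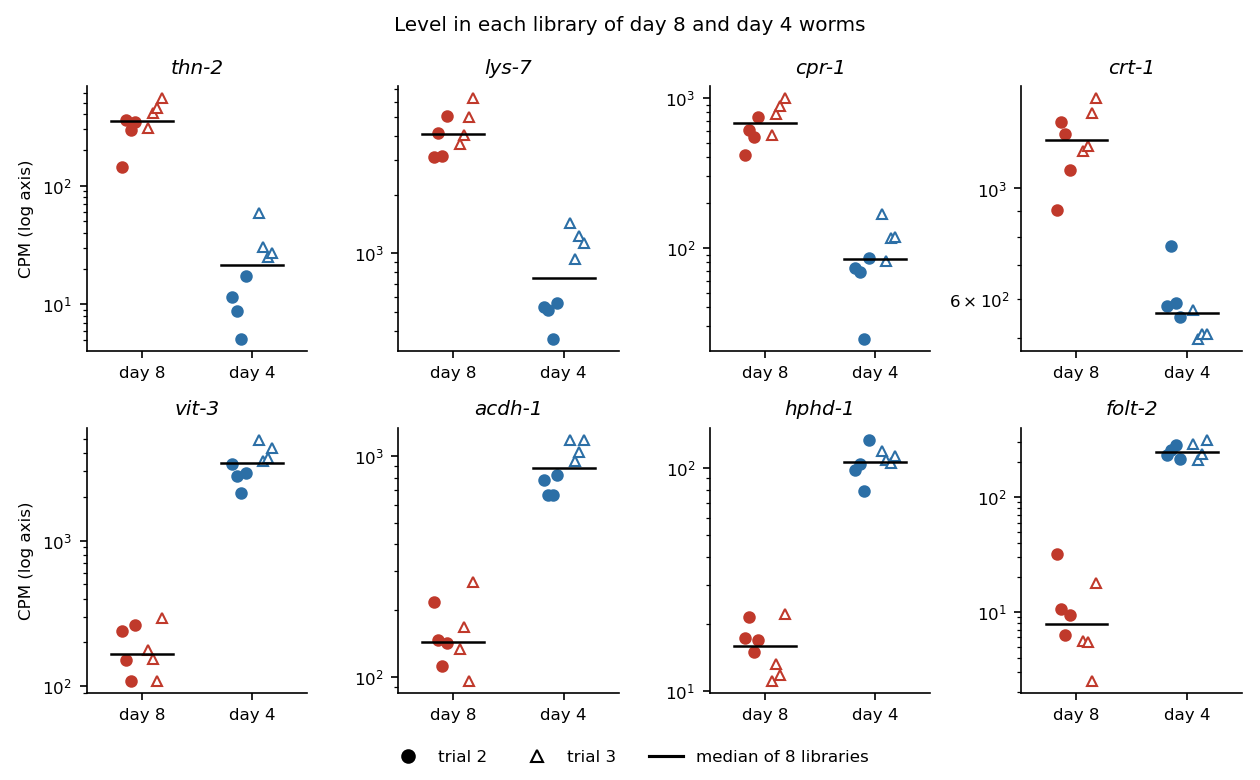
Level of 8 genes in each library, in CPM on a log axis, with day 8 left of day 4, filled circles for trial 2, open triangles for trial 3 and a bar at the median of 8 libraries. thn-2, lys-7, cpr-1 and crt-1 are higher at day 8, vit-3, acdh-1, hphd-1 and folt-2 are lower, and the ages do not overlap in any of the 8 genes.

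Genes of defence against bacteria moved in both directions. Of 11 tested lysozyme genes, 5 were higher and 2 lower (median 0.116), and their summed level was 4079 to 8097 CPM at day 8, against 1101 to 3961 CPM at day 4. lys-7 (WBGene00003096, chromosome V, bases 3481432 to 3482600), a lysozyme that DAF-16 is known to regulate, made up most of that sum at day 8 by the medians, but not at day 4. The sum had a median of 5304 CPM at day 8 and 2098 CPM at day 4. lys-7 had 3142 to 6268 CPM with a median of 4089 at day 8, against 362 to 1424 CPM with a median of 747 at day 4. The log2 fold change was 2.49 ± 0.21 (SE; edgeR adjusted p = 9.96e-07), at 2.01 in trial 3 and 2.98 in trial 2. lys-2 went the other way, with 69.2 to 206 CPM with a median of 101.4 at day 8, against 177 to 453 CPM with a median of 259 at day 4 and a log2 fold change of -1.28 ± 0.21 (SE; edgeR adjusted p = 0.000365); its ages overlapped. ilys-2 changed by 3.93 ± 0.67 (SE; edgeR adjusted p = 0.000481) with overlapping ages; it is a relative of ilys-3, and reads of the one may be counted for the other.

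C-type lectins, secreted sugar-binding proteins of which many respond to infection, were divided. Of 60 tested, 17 were higher and 24 lower (median -0.329), and the median was -0.67 in trial 3 and 0.0179 in trial 2. In the separate DMSO libraries of the treatment table, described at the end, the lectins had 12 members higher and 9 lower, with a median of 0.369. clec-80 had 35.6 to 73.5 CPM with a median of 48.6 at day 8, against 4.64 to 24.97 CPM with a median of 9.88 at day 4 (log2 fold change 2.27 (edgeR adjusted p = 6.03e-08)). clec-51 had 0.943 to 4.20 CPM with a median of 2.94 at day 8, against 11.5 to 33.03 CPM with a median of 24.1 at day 4 (log2 fold change -2.83 (edgeR adjusted p = 1.49e-10)). The ages were apart in both, as they were in clec-265, whose log2 fold change was -2.77 (edgeR adjusted p = 6.03e-08). On a list of 34 tested gut immune effectors of the p38 kinase PMK-1 pathway, 7 were higher and 12 lower (median -0.102; 0.0494 with scaling by library totals), whereas the treatment table libraries had 11 members higher and 5 lower, with a median of 0.7. F55G11.2, a gene of that list, was at 0 to 2.099 CPM with a median of 0.19 at day 8, against 7.17 to 12.7 CPM with a median of 9.33 at day 4, and K08D8.5 had a log2 fold change of -2.54 (edgeR adjusted p = 2.06e-09). The antibacterial peptide gene abf-2 rose instead, at 27.9 to 71.7 CPM with a median of 41.7 at day 8, against 3.44 to 10.1 CPM with a median of 7.53 at day 4, a log2 fold change of 2.72 ± 0.18 (SE; edgeR adjusted p = 7.38e-11). Among 20 epidermal antimicrobial peptide genes, 6 were higher and 3 lower (median 0.297). fipr-1, of a family related to a gene induced by fungi, was the member with the largest fall, -3.67 (edgeR adjusted p = 2.03e-08). In the saposin-like family, whose products can permeate bacterial membranes, spp-1 changed by 1.78 (edgeR adjusted p = 1.31e-05) and spp-17 by -2.51 (edgeR adjusted p = 2.29e-05).

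Genes of the intracellular pathogen response, which worms mount against microsporidia and the Orsay virus, and the pals family at its centre included more rises than falls. Of 20 tested, 11 were higher and 3 lower (median 0.629). pals-26 had 5.14 to 28.6 CPM with a median of 9.25 at day 8, against 0 to 1.97 CPM with a median of 0.671 at day 4. On the log2 scale it changed by 3.36 ± 0.44 (SE; edgeR adjusted p = 7.08e-06), and its ages did not overlap. pals-6 changed by 2.41 (edgeR adjusted p = 9.76e-09). pals-23 went down, with 11.9 to 21.9 CPM with a median of 17.3 at day 8, against 22.8 to 66.1 CPM with a median of 35.5 at day 4 and a log2 fold change of -1.08 ± 0.15 (SE; edgeR adjusted p = 6.19e-06), and pals-24 likewise changed by -1.18 (edgeR adjusted p = 4.26e-05).

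Targets of DAF-16 were higher in most called cases. On a list of genes that DAF-16 activates when insulin signalling is low (class I targets), of 21 tested 12 were higher and 1 lower (median 0.833). The median was 0.6 in trial 3 and 1.11 in trial 2. The member lys-7 is described above, and dod-6 had 132 to 299.9 CPM with a median of 168 at day 8, against 21 to 75.7 CPM with a median of 48.3 at day 4, a log2 fold change of 1.997 ± 0.15 (SE; edgeR adjusted p = 1.63e-07) with no overlap between the ages. dod-3 had 45.2 to 100.1 CPM with a median of 76.2 at day 8, against 4.16 to 39.9 CPM with a median of 26.6 at day 4. Its change on the log2 scale was 1.67 ± 0.29 (SE; edgeR adjusted p = 0.000574). asah-1, an acid ceramidase, had 47.9 to 92.7 CPM with a median of 69.2 at day 8, against 15.2 to 31.8 CPM with a median of 19.4 at day 4, a log2 fold change of 1.72 ± 0.13 (SE; edgeR adjusted p = 3.05e-10). The metallothionein gene mtl-1 changed by 1.08 (edgeR adjusted p = 0.000612). dod-17, a gene whose expression DAF-16 is known to lower, fell, with a log2 fold change of -3.54 (edgeR adjusted p = 1.6e-05). sod-3, a mitochondrial superoxide dismutase often used as a DAF-16 reporter, had too few counts to be tested, at 0.644 to 7.498 CPM with a median of 2.13 at day 8, against 0 to 2.48 CPM with a median of 0.857 at day 4.

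Among the regulators, changes were small or did not pass the threshold. daf-16 had 216 to 301 CPM with a median of 262 at day 8, against 169 to 282 CPM with a median of 215 at day 4. The gene's log2 fold change was 0.25 ± 0.06 (SE; edgeR adjusted p = 0.00136). The ages overlapped, as they did for smk-1, which encodes a partner of DAF-16 and changed by 0.35 (edgeR adjusted p = 0.000211). Neither passed in trial 2 alone, at 0.19 (edgeR adjusted p = 0.1) for daf-16 and 0.18 (0.113) for smk-1, nor without the trial term (edgeR adjusted p = 0.156 and 0.187). Of 21 tested genes of the insulin pathway, 5 were higher and 0 lower (median 0.1; 14 higher and 0 lower with scaling by library totals), and the treatment table libraries had 2 members higher and 3 lower, with a median of 0.229. The called share of this list was 23.8%, against 31.4% of all genes tested. skn-1, the oxidative stress regulator, was at -0.03 ± 0.07 (SE; edgeR adjusted p = 0.776) and hsf-1, the heat shock regulator, at -0.04 ± 0.08 (SE; edgeR adjusted p = 0.721); both signs turned with scaling by library totals, to 0.11 and 0.10. The gut regulator elt-2 was at 0.21 (edgeR adjusted p = 0.48) and the foregut regulator pha-4 at 0.21 (edgeR adjusted p = 0.548). None of these 4 passed the threshold, which does not show that their levels were equal.

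Every called gene of the endoplasmic reticulum unfolded protein response, which raises the folding capacity of the secretory pathway, was higher at day 8. Of 22 tested, 15 were higher and 0 lower (median 0.375), and leaving out 1 library gave 14 to 18 higher and 0 to 1 lower. The list summed to 6157 to 7296 CPM at day 8, against 4012 to 5638 CPM at day 4, and the ages did not overlap. The calreticulin gene crt-1 (WBGene00000802, chromosome V, bases 6098992 to 6100542) had 906 to 1521 CPM with a median of 1252 at day 8, against 497 to 765 CPM with a median of 560.3 at day 4. The fold change was 1.13 ± 0.10 (SE; edgeR adjusted p = 2.75e-07) on the log2 scale, and no day 8 library was as low as the highest day 4 library. enpl-1, the homologue of the mammalian chaperone GRP94, had 631 to 786 CPM with a median of 730.4 at day 8, against 339.7 to 569 CPM with a median of 399.6 at day 4, a log2 fold change of 0.82 ± 0.07 (SE; edgeR adjusted p = 1.4e-09). xbp-1, the transcription factor of the response, had 301 to 363 CPM with a median of 343 at day 8, against 204 to 236.9 CPM with a median of 227 at day 4. That is a log2 fold change of 0.58 ± 0.06 (SE; edgeR adjusted p = 1.46e-08). The disulfide isomerase pdi-3 changed by 0.57 (edgeR adjusted p = 3.36e-07). hsp-4, the homologue of the chaperone BiP and the usual reporter of the response, was at 321 to 416 CPM with a median of 391 at day 8, against 279.5 to 471 CPM with a median of 323 at day 4. Its log2 fold change of 0.16 ± 0.08 (SE; edgeR adjusted p = 0.127) did not pass; it was 0.32 in trial 3 and -0.01 in trial 2, and it passed, at an edgeR adjusted p of 0.0135, when day 4 trial 2 replicate 2 was left out and, at 0.0102, with scaling by library totals.

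**Figure D3:**
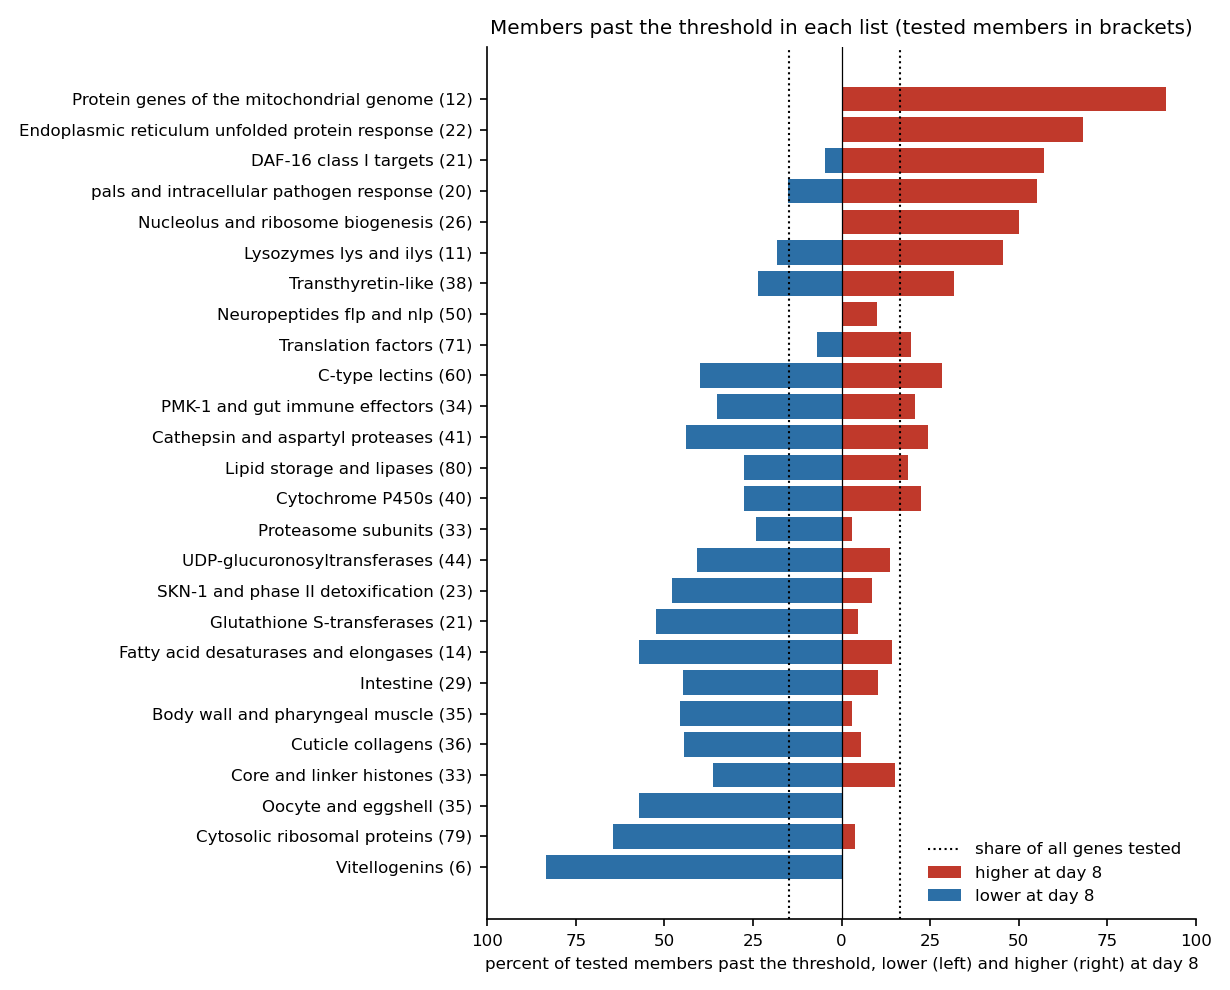
For 26 gene lists, bars give the percentage of tested members that were higher (right) or lower (left) at day 8, with the number tested in brackets, and dotted lines mark the 16.5% and 14.9% of all genes tested. Genes of the mitochondrial genome and the endoplasmic reticulum list lie at the upper end and vitellogenins at the lower end; the median of the lists of PMK-1 effectors, proteases, lipid genes and proteasome subunits changed sign with scaling by library totals, which also lowered the ribosomal count to 14 members.

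Most called ribosomal protein genes were lower at day 8, and every called gene of ribosome biogenesis was higher with all libraries in the fit. Of 79 cytosolic ribosomal protein genes tested, 3 were higher and 51 lower (median -0.244; 7 higher and 14 lower with scaling by library totals). The falls were small, at -0.714 to -0.142 on the log2 scale. rps-23 had 677 to 1332 CPM with a median of 891 at day 8, against 975 to 1758 CPM with a median of 1293 at day 4, a log2 fold change of -0.50 ± 0.07 (SE; edgeR adjusted p = 2.12e-06). rpl-15 had 794 to 893 CPM with a median of 845 at day 8, against 965 to 1164 CPM with a median of 1025 at day 4. On the log2 scale it changed by -0.33 ± 0.05 (SE; edgeR adjusted p = 8.36e-06), with no overlap. rpl-24.2, whose product acts in ribosome assembly, was one of the 3 that rose, at 0.46 (edgeR adjusted p = 1.98e-05). Among 26 tested genes of the nucleolus and ribosome biogenesis, 13 were higher and 0 lower (median 0.221). The nucleolar GTPase gene nog-1 had 365 to 568 CPM with a median of 452 at day 8, against 179.5 to 328 CPM with a median of 250.0 at day 4, a log2 fold change of 0.91 ± 0.10 (SE; edgeR adjusted p = 8.56e-07). lpd-7, the homologue of the ribosome biogenesis factor pescadillo, had 381 to 551 CPM with a median of 469.7 at day 8, against 246 to 315 CPM with a median of 295 at day 4. Its change on the log2 scale was 0.71 ± 0.07 (SE; edgeR adjusted p = 7.08e-09). In both, the ages did not overlap. Of 71 translation factors, 14 were higher and 5 lower (median 0.0344; 30 higher and 1 lower with scaling by library totals), and the lower count was 3 without day 8 trial 3 replicate 3 or day 4 trial 3 replicate 2. eif-3.B, a subunit of initiation factor eIF3, changed by 0.45 (edgeR adjusted p = 4.18e-05) and inf-1, the helicase eIF4A, by -0.39 (edgeR adjusted p = 4.74e-05). In the treatment table libraries the ribosomal protein genes had 10 members higher and 19 lower, with a median of -0.0382, and the nucleolar genes had 3 members higher and 2 lower, with a median of 0.0474. The difference between the ages in ribosomal RNA counts runs beside these groups and its part in them was not tested.

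Transcripts of the mitochondrial genome were higher. Of 12 protein genes of mitochondrial DNA, 11 were higher and 0 lower (median 0.546). COX3, a subunit of cytochrome oxidase, had 1405 to 3660 CPM with a median of 2298 at day 8, against 813 to 2765 CPM with a median of 1669 at day 4. The log2 fold change was 0.59 ± 0.08 (SE; edgeR adjusted p = 1.08e-05); the ages overlapped, and trial 3 libraries held more mitochondrial reads than trial 2 libraries at both ages. Without the trial term COX3 did not pass (edgeR adjusted p = 0.279). Mitochondrial protein genes took 0.652 to 0.955% of counts at day 8 and 0.489 to 0.645% at day 4 in trial 2, and 1.78 to 2.01% at day 8 and 1.25 to 1.44% at day 4 in trial 3, so that the ages were apart within each trial. The median over the list was 0.436 in trial 3 and 0.7 in trial 2. Of 60 nuclear genes of the respiratory chain, 6 were higher and 8 lower (median -0.0271; 18 higher and 0 lower with scaling by library totals, median 0.119). Their called share was 23.3%, against 31.4% of all genes tested. In the treatment table libraries the 12 genes had 4 members higher and 1 lower, with a median of 0.0208.

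In the germline, every called gene of the oocyte list was lower at day 8 under the main scaling. Of 35 oocyte and eggshell genes, 0 were higher and 20 lower (median -0.2; 1 higher and 8 lower with scaling by library totals). In the treatment table libraries this list had 3 members higher and 8 lower, with a median of -0.26. nos-2, a maternal nanos gene, had 95.2 to 138 CPM with a median of 128 at day 8, against 164 to 214 CPM with a median of 189.7 at day 4, a log2 fold change of -0.64 ± 0.08 (SE; edgeR adjusted p = 3.3e-07). pos-1, a maternal RNA-binding protein, had 691 to 1047 CPM with a median of 831 at day 8, against 1084 to 1237 CPM with a median of 1158 at day 4. The gene's log2 fold change was -0.46 ± 0.07 (SE; edgeR adjusted p = 1.2e-05). In both, all day 8 libraries lay below all day 4 libraries. The eggshell gene cbd-1 changed by -0.38 (edgeR adjusted p = 6.08e-06) and the oocyte translational repressor puf-5 by -0.42 (edgeR adjusted p = 1.29e-05). meg-1, a maternal P granule gene, changed by -0.74 (edgeR adjusted p = 4.89e-09) and cyb-3, cyclin B3, by -0.48 (edgeR adjusted p = 5.15e-07). Of 24 genes of meiosis and synapsis 7 were higher and 4 lower (median 0.0494; 10 higher and 0 lower with scaling by library totals), and the count of higher genes was 4 without day 8 trial 3 replicate 1. The treatment table libraries had 1 member higher and 5 lower, with a median of -0.301. syp-1, a protein of the synaptonemal complex that joins homologous chromosomes, had 93.7 to 131 CPM with a median of 106 at day 8, against 56.4 to 77.2 CPM with a median of 70.6 at day 4, a log2 fold change of 0.63 ± 0.08 (SE; edgeR adjusted p = 6.76e-07). cdk-1, the mitotic kinase, stood at 275 to 405 CPM with a median of 287 at day 8, against 242 to 334 CPM with a median of 287 at day 4 and did not pass, at 0.09 ± 0.07 (SE; edgeR adjusted p = 0.338), except with scaling by library totals (edgeR adjusted p = 0.0152). FUdR was present at both ages, so that the germline described here is one exposed to an inhibitor of DNA synthesis.

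Histone genes moved in both directions. The linker histone hil-5 had 277 to 352 CPM with a median of 323 at day 8, against 95.5 to 197 CPM with a median of 144 at day 4. That is a log2 fold change of 1.15 ± 0.08 (SE; edgeR adjusted p = 8.24e-11). hil-1 had 13.7 to 45.4 CPM with a median of 32.3 at day 8, against 4.43 to 10.4 CPM with a median of 6.90 at day 4, a log2 fold change of 2.099 ± 0.21 (SE; edgeR adjusted p = 6.67e-08), and hil-2 changed by 1.05 (edgeR adjusted p = 2.15e-06). Over the 33 tested histone genes 5 were higher and 12 lower (median -0.597; 8 higher and 10 lower with scaling by library totals). The count of lower genes was 22 without day 8 trial 2 replicate 4. The trials differed in these counts. Within trial 3 alone 5 were higher and 11 lower (median -0.943), and within trial 2 alone 4 were higher and 2 lower (median -0.169). Core histone genes such as his-4, at -1.65 (edgeR adjusted p = 0.00029), were counted at low levels; their messages lack poly(A) tails in most animals, the libraries were made with an mRNA kit, and many copies are close in sequence. In the treatment table libraries the histone list had 7 members higher and 0 lower, with a median of 0.387.

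Most called genes of muscle and cuticle were lower at day 8. Of 35 muscle genes 1 was higher and 16 lower (median -0.365), and of 36 tested collagens 2 were higher and 16 lower (median -0.608). Troponin T gene tnt-2 had 17.96 to 49.5 CPM with a median of 28.1 at day 8, against 48.2 to 103 CPM with a median of 67.3 at day 4. On the log2 scale it changed by -1.23 ± 0.24 (SE; edgeR adjusted p = 0.0015), and troponin C gene pat-10 had a log2 fold change of -0.83 (edgeR adjusted p = 0.00167). unc-54, the main myosin heavy chain of body wall muscle, had 75.5 to 291 CPM with a median of 179.7 at day 8, against 135 to 449 CPM with a median of 274 at day 4. Its log2 fold change of -0.64 ± 0.22 (SE; edgeR adjusted p = 0.0384) was near the threshold. It missed it without any 1 of day 8 trial 2 replicates 2 and 3, day 8 trial 3 replicates 1, 2 and 3, day 4 trial 2 replicates 1, 3 and 4 and day 4 trial 3 replicates 1 and 2, at edgeR adjusted p-values of 0.052 to 0.0772, and with scaling by library totals, at 0.0699. The adult collagen col-19 had 24.9 to 105 CPM with a median of 55.7 at day 8, against 49.9 to 151 CPM with a median of 93.4 at day 4, a log2 fold change of -0.65 ± 0.18 (SE; edgeR adjusted p = 0.0137). col-19 did not pass in trial 2 alone, at -0.46 (edgeR adjusted p = 0.226), or without the trial term (0.153). col-20 changed by -2.28 (edgeR adjusted p = 2.42e-07) and col-183, described above, was one of the 2 that rose. In the treatment table libraries the muscle list had 1 member higher and 3 lower, with a median of 0.055, and the collagens had 3 members higher and 13 lower, with a median of -0.546. Of 17 tested neuronal genes 2 were higher and 1 lower (median 0.197; 3 higher and 0 lower with scaling by library totals). The called share of this neuronal list was 17.6%, against 31.4% of all genes tested. snb-1, the synaptic vesicle protein synaptobrevin, had 190.4 to 231 CPM with a median of 203 at day 8, against 157 to 188 CPM with a median of 167 at day 4. Its change on the log2 scale was 0.26 ± 0.05 (SE; edgeR adjusted p = 0.000687). Of 50 tested neuropeptide genes, 5 were higher and 0 lower (median 0.125), a called share of 10% against 31.4% of all genes tested.

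Most called detoxification enzymes of phase II were lower at day 8. Of 21 tested glutathione S-transferases, which conjugate toxic compounds to glutathione, 1 was higher and 11 lower (median -0.63). gst-4, the usual reporter of SKN-1, had 5.14 to 16.15 CPM with a median of 7.86 at day 8, against 12.9 to 51.1 CPM with a median of 30.1 at day 4. Its log2 fold change was -1.66 ± 0.26 (SE; edgeR adjusted p = 7.72e-05), with a little overlap between the ages. gstk-1 had 23.6 to 43.2 CPM with a median of 30.9 at day 8, against 43.6 to 108.3 CPM with a median of 70.9 at day 4, a log2 fold change of -1.13 ± 0.11 (SE; edgeR adjusted p = 3.67e-08), and gst-27 changed by -1.71 (edgeR adjusted p = 3.44e-07). Of 44 UDP-glucuronosyltransferases, which attach sugars to foreign compounds, 6 were higher and 18 lower (median -0.283). ugt-43 had 0.733 to 5.66 CPM with a median of 2.43 at day 8, against 10.97 to 33.9 CPM with a median of 19.02 at day 4. The gene's log2 fold change was -3.101 ± 0.27 (SE; edgeR adjusted p = 2.9e-09). Of 40 cytochrome P450s, 9 were higher and 11 lower (median 0.014; 15 higher and 9 lower with scaling by library totals). cyp-35A2 changed by -0.94 (edgeR adjusted p = 3e-05), while cyp-35B1 had 9.53 to 22.2 CPM with a median of 15.1 at day 8, against 3.17 to 8.05 CPM with a median of 4.51 at day 4, a log2 fold change of 1.55 ± 0.22 (SE; edgeR adjusted p = 5.24e-06). On a list of 23 SKN-1 and phase II genes 2 were higher and 11 lower (median -0.286; 4 higher and 8 lower with scaling by library totals). trxr-1, thioredoxin reductase, was one that rose, at 0.49 (edgeR adjusted p = 1.6e-07). In the treatment table libraries the glutathione S-transferases had 0 members higher and 0 lower, with a median of -0.252, and the UDP-glucuronosyltransferases had 2 members higher and 1 lower, with a median of 0.172. The SKN-1 and phase II list had 2 members higher and 1 lower there, with a median of -0.157.

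Of 22 tested genes on a list of the methionine and one-carbon cycle and propionate breakdown, 4 were higher and 6 lower (median -0.0989; 6 higher and 4 lower with scaling by library totals, median 0.0436), and the treatment table libraries had 6 members higher and 4 lower, with a median of 0.0162. The 4 with the smallest p-values, acdh-1, hphd-1, sams-1 and pmt-2, were lower at day 8, and the 4 higher members changed by 0.227 to 0.374. acdh-1 (WBGene00016943, chromosome I, bases 6497436 to 6499560), an acyl-CoA dehydrogenase of the shunt that breaks down propionate when vitamin B12 is short, had 95.2 to 268 CPM with a median of 144 at day 8, against 668 to 1184 CPM with a median of 886 at day 4. The log2 fold change was -2.48 ± 0.20 (SE; edgeR adjusted p = 6.61e-07). hphd-1 (WBGene00012608, chromosome II, bases 12994354 to 12996571), a later enzyme of the same shunt, had 11.07 to 22.2 CPM with a median of 15.9 at day 8, against 79.3 to 134 CPM with a median of 107 at day 4. That is a log2 fold change of -2.73 ± 0.13 (SE; edgeR adjusted p = 6.08e-13). In both, day 8 libraries lay below all day 4 libraries, and the same held for ech-6, an enoyl-CoA hydratase of the lipid list, at 95.2 to 155 CPM with a median of 121 at day 8, against 216 to 368 CPM with a median of 291 at day 4 and a log2 fold change of -1.23 ± 0.07 (SE; edgeR adjusted p = 6.08e-13). sams-1, which makes S-adenosylmethionine, had 6.33 to 24.5 CPM with a median of 16.43 at day 8, against 44.3 to 67.8 CPM with a median of 55.3 at day 4, a log2 fold change of -1.91 ± 0.15 (SE; edgeR adjusted p = 6.36e-10). pmt-2, a methyltransferase on the way to phosphatidylcholine, had 29.7 to 80.2 CPM with a median of 53.2 at day 8, against 109 to 137 CPM with a median of 125 at day 4. On the log2 scale it changed by -1.25 ± 0.12 (SE; edgeR adjusted p = 2.36e-07). Neither overlapped. The nuclear receptor gene nhr-114, which acts on the supply of methyl groups and vitamin B12, changed by -1.64 (edgeR adjusted p = 2.82e-06).

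Genes of fat metabolism moved in both directions. Of 14 tested desaturases and elongases, 2 were higher and 8 lower (median -0.372). In the treatment table libraries they had 3 members higher and 2 lower, with a median of -0.0969. elo-6, an elongase of branched-chain fatty acids, had 54.6 to 144 CPM with a median of 83.2 at day 8, against 124 to 404 CPM with a median of 267 at day 4, a log2 fold change of -1.54 ± 0.13 (SE; edgeR adjusted p = 2.73e-07), and elo-2 changed by -1.06 (edgeR adjusted p = 1.05e-06). On a broad list of 80 lipid storage genes and lipases 15 were higher and 22 lower (median -0.0396; 26 higher and 20 lower with scaling by library totals, median 0.104), and the treatment table libraries had 19 members higher and 9 lower, with a median of 0.305. lipl-1, a lysosomal lipase, had 37.8 to 122.97 CPM with a median of 69.2 at day 8, against 3.80 to 24.6 CPM with a median of 11.7 at day 4. Its change on the log2 scale was 2.48 ± 0.18 (SE; edgeR adjusted p = 5.66e-09). lbp-8, a lysosomal lipid chaperone, was at 0 to 0.733 CPM with a median of 0 at day 8, against 1.63 to 16.8 CPM with a median of 8.601 at day 4. The acyl-CoA oxidase gene acox-1.4 changed by -2.004 (edgeR adjusted p = 1.99e-07) and nhr-49, a nuclear receptor that controls fat use, by 0.32 (edgeR adjusted p = 7.82e-05). far-3, a secreted fatty acid and retinol binding protein, had 88.98 to 289 CPM with a median of 161 at day 8, against 25.7 to 86.8 CPM with a median of 68.3 at day 4, a log2 fold change of 1.55 ± 0.32 (SE; edgeR adjusted p = 0.00224). It did not pass in trial 3 alone, at 1.12 (edgeR adjusted p = 0.0868).

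Digestive and lysosomal proteases were divided as well. Of 41 tested cathepsins and aspartyl proteases 10 were higher and 18 lower (median -0.102; 0.0461 with scaling by library totals), and the treatment table libraries had 12 members higher and 5 lower, with a median of 0.201. cpr-1 (WBGene00000781, chromosome V, bases 11975551 to 11976756), a gut cathepsin B-like protease, had 414 to 995 CPM with a median of 682 at day 8, against 24.4 to 168 CPM with a median of 83.7 at day 4. The fold change was 2.97 ± 0.25 (SE; edgeR adjusted p = 9.61e-07) on the log2 scale, and every day 8 library was above every day 4 library. cpl-1, cathepsin L, had 297 to 637 CPM with a median of 359 at day 8, against 662 to 1154 CPM with a median of 767 at day 4. The gene's log2 fold change was -1.05 ± 0.12 (SE; edgeR adjusted p = 7.28e-06), and asp-14 changed by -1.85 (edgeR adjusted p = 1.01e-08). The lysosomal nuclease gene nuc-1 had 148 to 375 CPM with a median of 234 at day 8, against 47.3 to 155 CPM with a median of 77.7 at day 4, a log2 fold change of 1.51 ± 0.18 (SE; edgeR adjusted p = 1.93e-05). The autophagy gene atg-16.2 changed by 0.74 (edgeR adjusted p = 2.2e-05) and vha-8, a subunit of the proton pump that acidifies lysosomes, by -0.36 (edgeR adjusted p = 4.38e-05).

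Cytosolic stress genes moved singly. The inducible chaperones hsp-70, at 2.39 (edgeR adjusted p = 9.93e-06), hsp-16.41, at 1.82 (edgeR adjusted p = 0.00102), and hsp-16.2, at 1.87 (edgeR adjusted p = 0.00604), passed as higher from levels near 1 CPM at day 4, and the hsp-16 genes are close copies. In trial 2 alone hsp-16.41 was at 1.06 (edgeR adjusted p = 0.0817) and hsp-16.2 at 1.005 (0.174), and neither passed. hsp-110 changed by -0.33 (edgeR adjusted p = 0.000522) and dnj-13 by -0.31 (edgeR adjusted p = 0.000476), and both missed the threshold with scaling by library totals, as did atfs-1 (edgeR adjusted p = 0.0562, 0.0737 and 0.116 in the order hsp-110, dnj-13, atfs-1). Over the 18 tested genes of the list 4 were higher and 4 lower (median -0.0956; 6 higher and 0 lower with scaling by library totals, median 0.0461). hsp-6, the mitochondrial chaperone that reports mitochondrial stress, had 418 to 574 CPM with a median of 527 at day 8, against 293 to 488 CPM with a median of 373 at day 4. That is a log2 fold change of 0.42 ± 0.06 (SE; edgeR adjusted p = 4.16e-06), while the regulator of that response, atfs-1, changed by -0.29 (edgeR adjusted p = 0.00102). Of 33 proteasome subunits 1 was higher and 8 lower (median -0.0687; 5 higher and 2 lower with scaling by library totals, median 0.0747). Of 38 secreted transthyretin-like proteins, 12 were higher and 9 lower (median 0.117; 15 higher and 6 lower with scaling by library totals). ttr-45 had 185 to 473 CPM with a median of 292 at day 8, against 64.3 to 187 CPM with a median of 124 at day 4, a log2 fold change of 1.33 ± 0.13 (SE; edgeR adjusted p = 1.67e-06).

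The day 4 to 8 step was set against the step that follows it in 1 model of all 40 control libraries of trials 2 and 3 (8 at each of 5 ages), where the contrast was the day 4 to 8 change minus the day 8 to 12 change. Both steps share the day 8 libraries. Of 11778 genes tested, 1297 passed (11%), 742 with a more positive change in the earlier step (6.3%) and 555 with a more negative one (4.71%). Levels in this model are means ± SD of 8 libraries, scaled over all 5 ages. The gene asm-3, an acid sphingomyelinase, had 2.04 ± 1.94 CPM at day 2, 25.4 ± 11.9 at day 4, 71.4 ± 21.9 at day 8, 4.40 ± 1.197 at day 12 and 0.427 ± 0.378 at day 16. Its difference between the steps was 5.48 ± 0.42 (SE; edgeR adjusted p = 4.66e-12). thn-1 had 3.17 ± 1.53 CPM at day 2, 2.86 ± 1.74 at day 4, 65.8 ± 26.3 at day 8, 23.4 ± 6.79 at day 12 and 8.71 ± 2.77 at day 16, a difference of 6.13 ± 0.49 (SE; edgeR adjusted p = 2e-11). asah-1 differed by 3.74 ± 0.33 (SE; edgeR adjusted p = 5.07e-11) and pqn-73 by 5.70 ± 0.51 (SE; edgeR adjusted p = 3.9e-11). In these 4 genes, the mean at day 8 was the highest of the 5 ages. They were picked by the smallest p for a more positive earlier step, which a high day 8 level favours. Their peak over days 4 and 12 is therefore a description.

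Other genes already named as higher at day 8 had the same form. The same day 8 libraries enter both of their steps, so this form is a description too. lys-7 had 250.2 ± 167 CPM at day 2, 869.6 ± 415 at day 4, 4425 ± 1106 at day 8, 1575 ± 504 at day 12 and 134 ± 67.2 at day 16, a difference between the steps of 3.89 ± 0.50 (SE; edgeR adjusted p = 1.12e-06). cpr-1 had 106 ± 42.6 CPM at day 2, 95.5 ± 44.6 at day 4, 710.1 ± 195.97 at day 8, 85.4 ± 46.5 at day 12 and 26.3 ± 19.6 at day 16, a difference of 5.96 ± 0.58 (SE; edgeR adjusted p = 5.1e-09). thn-2, col-183 and lipl-1 differed between the steps by 6.44 ± 0.51 (SE; edgeR adjusted p = 5.44e-11), 6.77 ± 0.71 (SE; edgeR adjusted p = 1.13e-07) and 4.73 ± 0.48 (SE; edgeR adjusted p = 5.51e-09). Some rises went on instead. abf-2 had 2.19 ± 1.46 CPM at day 2, 7.47 ± 2.58 at day 4, 48.1 ± 16.45 at day 8, 94.3 ± 36.99 at day 12 and 114.4 ± 25.2 at day 16. For crt-1 the means were 538 ± 53.8 CPM at day 2, 593 ± 85.5 at day 4, 1281 ± 202 at day 8, 1361 ± 125 at day 12 and 1427 ± 133 at day 16, and ilys-3 had 0.197 ± 0.202 CPM at day 2, 0.868 ± 1.69 at day 4, 152 ± 113 at day 8, 261 ± 41.1 at day 12 and 197 ± 51.8 at day 16. Among genes that fell, ech-6 had 426 ± 126 CPM at day 2, 303 ± 72.8 at day 4, 125 ± 20.6 at day 8, 98.4 ± 13.8 at day 12 and 103 ± 22.5 at day 16, a difference of -0.90 ± 0.13 (SE; edgeR adjusted p = 3.83e-06), and C07D8.6 had 135 ± 16.3 CPM at day 2, 102 ± 15.97 at day 4, 56.4 ± 10.9 at day 8, 99.6 ± 23.8 at day 12 and 93.1 ± 16.44 at day 16, a difference of -1.64 ± 0.23 (SE; edgeR adjusted p = 2.7e-06). ZK1307.1 and T23F2.5 differed between the steps by -2.24 ± 0.34 (SE; edgeR adjusted p = 8.17e-06) and -2.08 ± 0.30 (SE; edgeR adjusted p = 2.34e-06). Genes with a more negative earlier step were also picked by the smallest p, which a low day 8 level favours. The form of ech-6, C07D8.6, ZK1307.1 and T23F2.5 is therefore a description as well. In contrast, vit-3 had a difference of -0.20 ± 0.39 (SE; edgeR adjusted p = 0.807) and acdh-1 one of 1.76 ± 0.42 (SE; edgeR adjusted p = 0.00451), and both had lower means at day 12 than at day 8. vit-5, which did not pass between day 8 and day 4, had 20435 ± 4806 CPM at day 2, 20698 ± 3465 at day 4, 17559 ± 5325 at day 8, 4582 ± 2167 at day 12 and 1516 ± 1204 at day 16, with a difference between the steps of 1.74 ± 0.45 (SE; edgeR adjusted p = 0.0098).

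**Figure D4:**
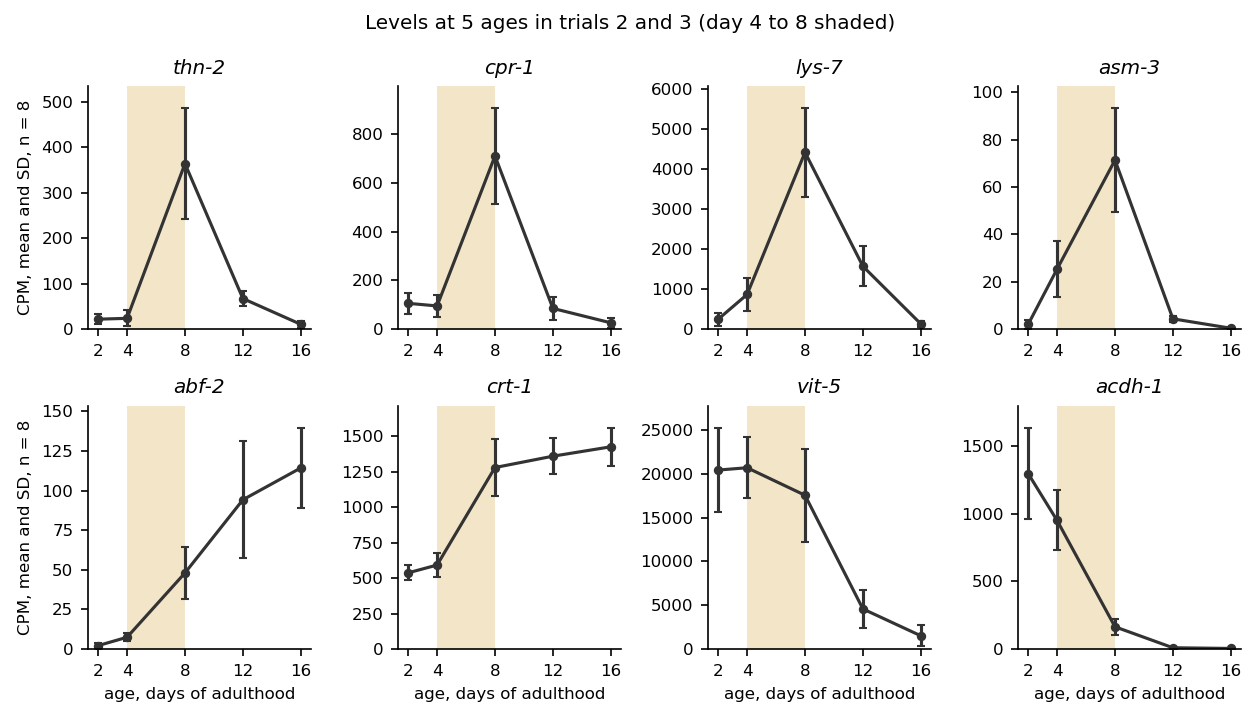
Mean and SD of 8 control libraries at days 2, 4, 8, 12 and 16 of adulthood, in CPM scaled over all 40 libraries of trials 2 and 3, with the day 4 to 8 step shaded. The means of thn-2, cpr-1, lys-7 and asm-3 are highest at day 8, those of abf-2 and crt-1 are higher at day 16 than at day 8, and those of vit-5 and acdh-1 are lowest at day 16.

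The trials were then compared. Within trial 3 alone 1252 genes were higher and 1042 lower at day 8 (22.2% of genes tested), and within trial 2 alone 756 were higher (7.32%) and 863 lower (8.35%), 15.7% in all. A test of the difference between the trials in the day 8 against day 4 change found 6 genes at an adjusted p of 0.05 (0.0581%), 1 with a more positive change in trial 3 (0.00968%) and 5 with a more negative one (0.0484%). Of the 10331 genes tested, 1213 passed an unadjusted p of 0.05, a larger share than 0.05. The 6 genes are therefore not a full count of the differences between the trials. sams-3, another S-adenosylmethionine synthetase, had a log2 fold change of 0.19 in trial 3 and -0.64 in trial 2. The infection response gene irg-4 had -3.21 in trial 3 and -1.21 in trial 2. drd-50 had -2.78 in trial 3 and -0.75 in trial 2. The C-type lectin clec-71 had -2.17 in trial 3 and 0.49 in trial 2, and ugt-31 had -1.45 in trial 3 and 0.33 in trial 2. The T-box gene tbx-43, named since it is one of the 6, averaged 4.78 ± 1.76 CPM at day 8 and 5.29 ± 4.76 CPM at day 4 (SD, n = 8 each) and had a log2 fold change of -1.12 in trial 3 and 1.84 in trial 2. This count rests on single libraries, being 0 without day 8 trial 2 replicate 1, day 4 trial 2 replicate 3 or day 4 trial 3 replicate 1, 2 without day 8 trial 3 replicate 1, 3 without day 4 trial 3 replicate 4, and 138 without day 8 trial 3 replicate 4.

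The same step was measured in libraries that the comparison above did not use, 4 day 8 and 4 day 4 DMSO libraries of wild-type N2 from the table of sulforaphane treatments, with no trial number in their labels. They were fitted on their own. Of 10299 genes tested there 1971 passed (19.1%), 933 as higher at day 8 (9.06%) and 1038 as lower (10.1%). Of the 1666 genes called higher in trials 2 and 3 and tested in both, 471 were called higher there (28.3%), 36 lower (2.16%) and 1159 neither. Of the 1437 called lower, 365 were called lower there (25.4%), 17 higher (1.18%) and 1055 neither. The count in these libraries depends on single ones. It was 1088, 1149, 1074 and 1046 without day 8 replicates 1, 2, 3 and 4, and 3935 without day 4 replicate 4. That library, day 4 replicate 4, held 444501 counts.

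The largest changes recurred there. Of the 24 genes with the largest rises and falls, 23 could be tested and 22 passed in the same direction; the other was Y68A4A.13, with a log2 fold change of 2.39 (edgeR adjusted p = 0.0628), and srh-237 had too few counts. pud-3 averaged 0.846 ± 0.452 CPM at day 8 and 264 ± 62.1 CPM at day 4 (SD, n = 4 each). vit-3 averaged 168 ± 32 CPM at day 8 and 2488 ± 615 CPM at day 4, and C50F7.5 averaged 1278 ± 125 CPM at day 8 and 4.91 ± 3.76 CPM at day 4. ilys-3 averaged 117.1 ± 33.3 CPM at day 8 and had no count at day 4. lys-7 changed by 4.01 (edgeR adjusted p = 3.74e-06), cpr-1 by 5.72 (edgeR adjusted p = 8.74e-06), crt-1 by 1.86 (edgeR adjusted p = 2.54e-07) and acdh-1 by -2.11 (edgeR adjusted p = 8.78e-07). hsp-4, which missed the threshold in trials 2 and 3, changed there by 0.91 (edgeR adjusted p = 0.000368). hphd-1 was at -0.68 (edgeR adjusted p = 0.393), sams-1 at -0.23 (edgeR adjusted p = 0.711) and cpl-1 at 0.12 (edgeR adjusted p = 0.588), and these 3 did not pass. Some other genes named above as lower at day 8 had a higher mean at day 8 there. rpl-15 averaged 1462 CPM at day 8 and 1250 at day 4, and gstk-1 48.95 and 36.53, with SDs at day 4 of 157 and 17.8. cyp-35A2 averaged 31.71 CPM at day 8 and 22.19 at day 4, where its SD was 23.4. Means at day 8 and day 4 were close for elo-6 (69.95 and 79.35 CPM) and vha-8 (235.5 and 233 CPM). The DAF-16 class I targets had 15 members higher and 0 lower, with a median of 2.08, and the endoplasmic reticulum list had 14 members higher and 0 lower, with a median of 1.02. Intestinal markers had 3 members higher and 1 lower, with a median of 0.232, against a median of -0.465 in trials 2 and 3. The median over all genes tested there was 0.0851.

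**Figure D5:**
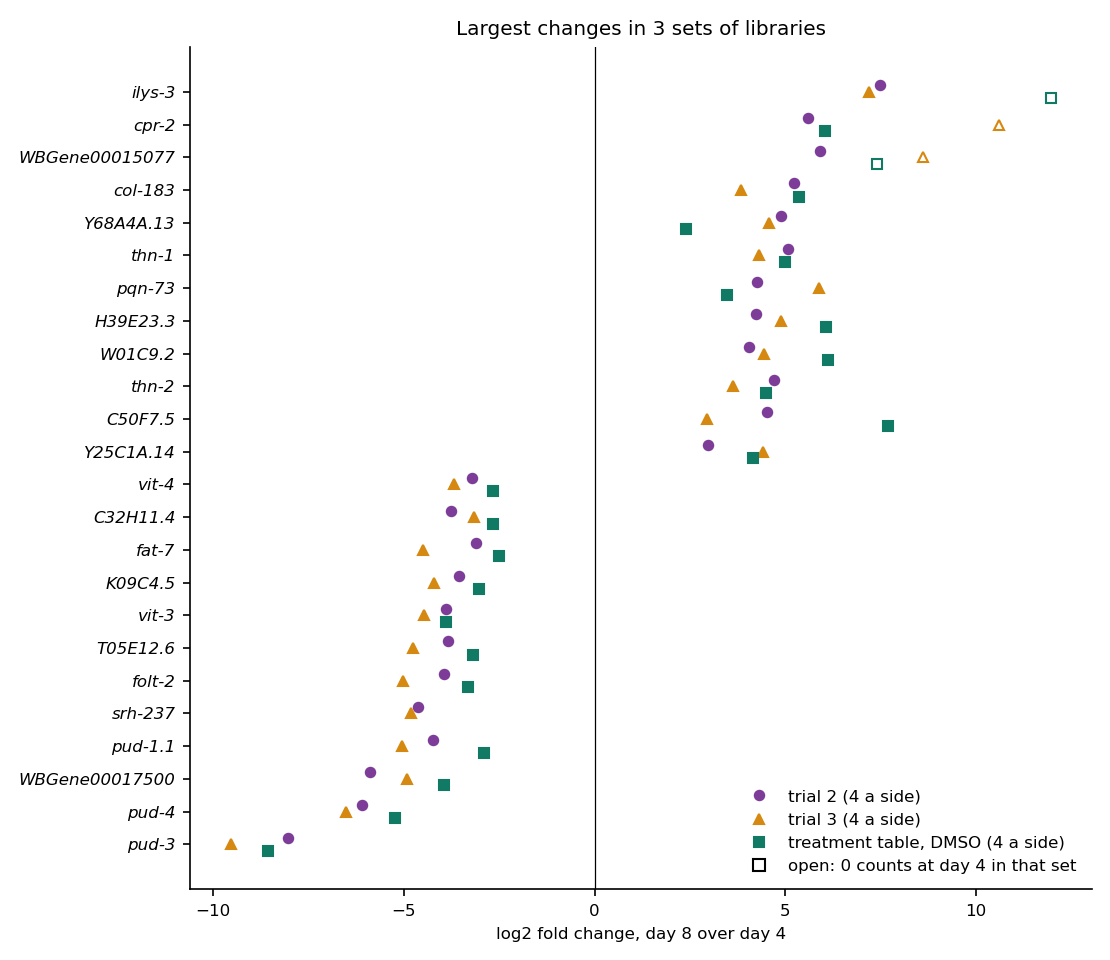
Log2 fold change, day 8 over day 4, of the 24 genes with the largest rises and falls in trial 2, in trial 3 and in the DMSO libraries of the treatment table (4 libraries a side in each). All points of the 12 upper genes lie right of 0 and all points of the 12 lower genes left of it; open symbols mark genes with no count at day 4 in that set of libraries, whose fitted values are not bounds.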

How the data were processed

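The deposited tables hold whole-number counts of reads per gene, made by the authors with featureCounts of Subread 2.0.2 on build WBcel235, per the submitters' processing notes, with Ensembl release 108 annotation per the header of the treatment table. The table of additional controls has no such header, and holds the same identifiers and gene lengths. The aligner is not given in the sources used here, and the strand setting is not known for the table of additional controls. Whether reads of overlapping antisense genes were kept apart there is therefore not known. Gene names came from Ensembl release 115, in which all 46926 identifiers were found.

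Counts of the 16 libraries were scaled by TMM, filtered with filterByExpr by age and trial, and tested with edgeR 4.0.16 in R 4.3.3 (robust quasi-likelihood fit, trial as a term, 13 residual degrees of freedom, Benjamini-Hochberg over all 10331 genes, threshold 0.05). DESeq2 1.42.0 and limma-voom 3.58.1 were alternatives. The fits were tested on simulated counts. Of 36 replicate pairs compared, none was identical, and chi-square per degree of freedom was 2.29 to 48.3.

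The members and the 58 gene lists were chosen with earlier results of these data known. In all, 20 symbols of the lists matched no gene name and were left out. Among them were T24B8.5, F35E12.8, C32H11.1 and C32H11.12 of the PMK-1 list. The list of DAF-16 class I targets lost dod-8 and C24B9.9 in this way. Named genes were the 12 largest rises and 12 largest falls with the same direction in both trials, no overlap and a mean of at least 10 CPM at either age, up to 4 members of each list by p, of which a part is named, a fixed set of regulators and reporters, and the leading genes of both difference tests. tbx-43, pud-1.2 and the remaining pud genes were added after their values were seen.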

Additional observations from a re-analysis of the deposited data

Results flagged for a closer look

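Over the genes named and 5 measures of the libraries, 270 sets of 8 libraries of 1 age were searched for a library whose gap to the others was large relative to the spread, and 23 cases were found, in 9 of the 16 libraries. Chance alone gives about 5% of sets where values are normally distributed, which was not checked for these levels. All cases but mtl-1 were the highest library of their age. The number of cases is therefore not read as an excess over chance. Brackets give the level in that library and in the nearest other library of its age. Day 8 trial 3 replicate 4 was the highest of its age for H39E23.3 (48.0 CPM, next 24.9), for cpl-1 (637 CPM, next 422), for snb-1 (231 CPM, next 209.6) and for his-4 (5.998 CPM, next 3.11). Day 8 trial 3 replicate 3 was the highest for ilys-3 (384 CPM, next 182.9), and for WBGene00017500 (1.87 CPM, next 0.733). Day 8 trial 3 replicate 1 was the highest for srh-237 (1.98 CPM, next 0.57), and the lowest for mtl-1 (163 CPM, next 244). Day 8 trial 2 replicate 1 was the highest for T05E12.6 (11.6 CPM, next 5.998), for dod-17 (2.28 CPM, next 0.966) and for clec-71 (15.6 CPM, next 8.38). The shallowest library, day 8 trial 2 replicate 4, was the highest for ugt-43 (5.66 CPM, next 2.90) and for nhr-114 (7.54 CPM, next 4.20).

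At day 4, trial 3 replicate 3 was the highest for ilys-3 and for ilys-2, at 4.77 and 4.77 CPM, against 0.905 and 2.01 CPM in the nearest other libraries. Trial 3 replicate 1 was the highest for thn-2 (58.8 CPM, next 30.4) and for asah-1 (31.8 CPM, next 21.6). Trial 2 replicate 2 was the highest for crt-1 (765 CPM, next 589), for hsp-16.2 (4.22 CPM, next 1.76) and for C07D8.6 (135 CPM, next 106). Trial 2 replicate 3 was the highest for WBGene00015077 (0.362 CPM, next 0.16), for dod-17 (12.1 CPM, next 6.97) and for col-20 (93.6 CPM, next 47.3).

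The day 8 against day 4 change differed between the trials in 6 genes, by the test of the difference itself. As trial 3 minus trial 2 on the log2 scale, the difference was 0.835 in sams-3, -1.79 in ugt-31, -2.02 in drd-50, -2.01 in irg-4, -2.66 in clec-71 and -2.96 in tbx-43. Without day 8 trial 2 replicate 1, which stood apart above, clec-71 passed between the ages at an edgeR adjusted p of 0.005.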

How the results depend on the processing

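The count of 3247 genes between day 8 and day 4 was within 1.5 times itself under RLE scaling, library totals, no filter on low counts, a strict filter, DESeq2 and limma-voom. With scaling by library totals 3131 were higher and 873 lower. Without the trial term 1803 passed (897 higher, 906 lower), in trial 2 only 1619 (756 higher, 863 lower), at an adjusted p of 0.01 2018 (1033 higher, 985 lower) and with a change of at least 1 on the log2 scale 816 (385 higher, 431 lower). Leaving out 1 library gave 2865 to 3348 (1435 to 1729 higher, 1380 to 1717 lower). For the difference between the trials, no filter gave 140 genes (68 higher, 72 lower), the strict filter 2 higher and 2 lower, DESeq2 52 (16 higher, 36 lower) and limma-voom 2 higher and 3 lower, and leaving out 1 library gave 0 to 138 (0 to 29 higher, 0 to 109 lower). For the treatment table libraries, no filter gave 1552 higher, DESeq2 1863 higher, limma-voom 4162 (2132 higher, 2030 lower) and a fit of all 20 of its DMSO libraries gave 3102 (2142 higher); leaving out 1 library gave 1046 to 3935 (494 to 1894 higher, 493 to 2041 lower), and leaving out both day 4 libraries with the fewest genes, an alternative chosen after seeing the data, gave 4708 (2319 higher, 2389 lower). For the difference between the steps, the strict filter gave 857 (453 higher), trial 2 only 575 (388 higher, 187 lower), trial 3 only 669 (431 higher, 238 lower) and leaving out 1 library 1036 to 1334 (576 to 746 higher, 422 to 594 lower). The cause of these moves was not tested.

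Replicate numbers were not shown to pair the libraries. The correlation of same-numbered libraries was -0.35 to 0.19, above 0.1 in 2 of 8 pairs, and 3 day 8 libraries were best matched by their own number. With the replicate block, 2809 genes passed between day 8 and day 4 and 1175 between the steps. In the treatment libraries 1240 passed with the block (614 higher, 626 lower). Among the genes named, unc-54 lost its call with the block.

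Among the genes named, the sign of a fold change turned 12 times, each in a gene not past the threshold with both trials together. 1 of the turned values passed, tbx-43 in trial 3 alone. With scaling by library totals skn-1 was at 0.11 and hsf-1 at 0.0989, and without 1 library skn-1 ranged from -0.0836 to 0.00351, the value above 0 being without day 4 trial 2 replicate 2. In trial 2 only, pha-4 was at -0.125, vit-5 at 0.0279, clec-71 at 0.492, hsp-4 at -0.0085 and ugt-31 at 0.333. In trial 3 only, skn-1 was at 0.138, sams-3 at 0.193, hsf-1 at 0.128 and tbx-43 at -1.12 (edgeR adjusted p = 0.0323). Over all alternatives run and genes named, a call was lost 34 times and gained 13 times with the sign kept, beside that of tbx-43. Without the trial term cbd-1, eif-3.B and hsp-110 also lost theirs (edgeR adjusted p = 0.0717, 0.0504 and 0.0654), and in trial 3 alone dnj-13 and hsp-110 (0.108 and 0.105). sams-3 passed without day 8 trial 3 replicate 1 (edgeR adjusted p = 0.0287) or day 4 trial 3 replicate 3 (0.0494), with no filter (0.0139), in trial 2 alone (5.1e-05) and with limma-voom (limma adjusted p = 0.0127). Depth limits genes near 1 CPM, since the shallowest library holds 1071727 counts.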

Other observations

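Some gene groups outside the account above were also counted, beside 16.5% higher and 14.9% lower over all genes tested. With scaling by library totals, 3131 of all 10331 genes tested were higher and 873 lower. Of 38 genes of the cell cycle and DNA replication 3 were higher and 7 lower (median -0.0294; 9 higher and 3 lower with scaling by library totals, median 0.112); the lower count was 12 without day 8 trial 3 replicate 1, and 11 without day 8 trial 3 replicate 2 or day 4 trial 3 replicate 1. Of 29 germline P granule and small RNA genes 5 were higher and 5 lower (median -0.00767; 9 higher and 3 lower with scaling by library totals, median 0.135). There, 3 were higher without any 1 of day 8 trial 3 replicates 1 and 2 and day 4 trial 3 replicates 1 and 4, and 8 were lower without day 8 trial 3 replicate 1 or day 4 trial 3 replicate 1. Of 66 mitochondrial ribosomal proteins 1 was higher and 8 lower (median -0.107; 6 higher and 1 lower with scaling by library totals, median 0.0377). Of 41 genes of glycolysis, gluconeogenesis and the TCA cycle 8 were higher and 10 lower (median 0.0336; 16 higher and 2 lower with scaling by library totals); without day 8 trial 3 replicate 3 the lower count was 6. Of 17 genes of trehalose and glycogen 3 were higher and 2 lower (median -0.112; 5 higher and 1 lower with scaling by library totals, median 0.0373), with 4 lower without day 8 trial 2 replicate 1. Of 25 antioxidant enzymes 6 were higher and 5 lower (median 0.0346; 8 higher and 2 lower with scaling by library totals). Of 38 autophagy and lysosome genes 9 were higher and 6 lower (median 0.0696; 18 higher and 4 lower with scaling by library totals). Of 15 genes of the mitochondrial unfolded protein response 2 were higher and 1 lower (median -0.0692; 4 higher and 0 lower with scaling by library totals, median 0.0772), and of 14 genes of the CCT chaperonin and prefoldin 2 were higher and 3 lower (median -0.121; 3 higher and 0 lower with scaling by library totals, median 0.0211). The lower count of the chaperonin list was 6 without day 8 trial 2 replicate 4 and 5 without day 8 trial 3 replicate 1. Of 21 genes of the sulfide, cysteine and hypoxia response 1 was higher and 3 lower (median -0.0615; 3 higher and 2 lower with scaling by library totals, median 0.0809).

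Among transcription factors and ubiquitin ligase adaptors, of 124 nuclear hormone receptors 13 were higher and 11 lower (median 0.13; 25 higher and 5 lower with scaling by library totals), and of 164 F-box and BATH genes 20 were higher and 21 lower (median 0.0741; 28 higher and 11 lower with scaling by library totals). The lower count of nuclear hormone receptors was 6 or 7 without any 1 of day 8 trial 3 replicates 1 and 2, day 4 trial 2 replicates 2 and 3 and day 4 trial 3 replicates 1 and 4. The higher count of F-box and BATH genes was 11 without day 8 trial 2 replicate 3 and 13 without day 4 trial 3 replicate 1. Of 38 ABC transporters 9 were higher and 8 lower (median -0.0811; 12 higher and 6 lower with scaling by library totals, median 0.0654), with 5 higher without any 1 of day 8 trial 3 replicate 4, day 4 trial 2 replicate 1 and day 4 trial 3 replicates 2 and 4. Of 18 saposin-like genes 4 were higher and 4 lower (median -0.0523; 6 higher and 3 lower with scaling by library totals, median 0.103), with 8 higher without day 8 trial 3 replicate 1. Of 17 genes of the heavy metal response 4 were higher and 2 lower (median 0.129), and of 7 dod genes 3 were higher and 1 lower (median 0.373). Of 14 genes of coelomocytes and the somatic gonad 4 were higher and 0 lower (median 0.185), and of 17 genes of the hypodermis and basement membrane 3 were higher and 1 lower (median -0.0617; 3 higher and 0 lower with scaling by library totals, median 0.0863). Of 5 insulin-like peptides 1 was higher and 0 lower (median 0.362), of 7 fatty acid and retinol binding genes 2 were higher and 0 lower (median -0.131; 0.015 with scaling by library totals), and of 3 pharynx gland genes 1 was higher and 0 lower (median -0.0604; 0.0873 with scaling by library totals). Of 11 genes of late embryos and larvae 1 was higher and 2 lower (median 0.113; 1 higher and 0 lower with scaling by library totals), and of 9 sperm genes 1 was higher and 1 lower (median 0.0441; 2 higher and 0 lower with scaling by library totals). Of 30 chromatin factors 3 were higher and 1 lower (median -0.00677; 10 higher and 1 lower with scaling by library totals, median 0.136), with 3 lower without day 8 trial 3 replicate 1 or day 4 trial 3 replicate 1. Of 68 genes listed for the spliceosome by symbol 10 were higher and 11 lower (median -0.0657; 19 higher and 4 lower with scaling by library totals, median 0.0783), and that list also took in hrg and hrde genes, which are not splicing factors. Counts of 3 or fewer in the lists of this account not mentioned with a left-out library moved by at most 2 genes when 1 was left out.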
